A study of Mus musculus with 4 samples.

Results

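The Snrpn imprinted cluster on mouse chromosome 7 was described across 4 libraries of epiblast stem cells (EpiSCs), pluripotent cells grown from the epiblast of the early embryo. Its members were chosen by name: Ndn, Magel2, Mkrn3, Peg12, Ube3a and Atp10a, together with the chromosome 7 entry that holds Snrpn and shares it with Snurf. All 7 entries were found among the 22686 of the deposited table. They spanned 3.70 Mb, from position 65913572 to 69609396 (mm9). The cells came from female embryos at day 6.5. The parents were C57BL6/J and an F1 hybrid of JF1 with C57BL6/J. The groups were Smchd1 MD1/MD1 XistdeltaA/+ and Smchd1 +/+ XistdeltaA/+, and Smchd1 MD1/MD1 Xist1lox/+ and Smchd1 +/+ Xist1lox/+. MD1 is a mutant allele of Smchd1, which encodes a chromatin protein needed for silencing on the inactive X chromosome and at some imprinted clusters. All 4 groups carry a mutated Xist allele, so no group has 2 intact Xist alleles. Each group had 1 library, and the labels do not say whether it came from 1 cell line or several. Differences within a pair therefore have no replicate check.

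Genomic imprinting marks a gene in the germ line so that the copy from a single parent is transcribed. In this cluster the maternal copy of the Snrpn promoter is methylated, and Snrpn, Ndn, Magel2, Mkrn3 and Peg12 are known to be expressed from the paternal copy. Ube3a is expressed from the maternal copy in neurons and from both copies in most other cells. The corresponding human interval is the one lost or silenced in Prader-Willi and Angelman syndromes.

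The promoters of the genes known as paternally expressed are shown because the members split by allele content in the results that follow. All 8 symbols matched RefSeq (GRCm38.p6), with 10 different starts in all. Each sequence runs 5′ to 3′ on the gene's strand from 250 bases before the start to 50 bases from it on. Capitals mark the palindrome CGCATGCG, which lies within the known binding motif of the transcription factor NRF1, and TGCCGC or its reverse complement GCGGCA, the hexamer read by the imprint factor ZFP57. Both motifs were chosen after the sequences had been seen.
Snrpn and Snurf, shared start, chr7:60005150-60005449, minus strand: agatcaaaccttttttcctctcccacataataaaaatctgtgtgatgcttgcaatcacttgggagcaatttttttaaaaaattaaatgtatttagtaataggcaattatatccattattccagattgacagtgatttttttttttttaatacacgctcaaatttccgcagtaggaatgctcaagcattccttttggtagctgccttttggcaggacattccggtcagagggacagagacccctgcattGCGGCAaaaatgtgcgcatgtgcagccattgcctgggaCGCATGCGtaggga
Ndn, chr7:62348027-62348326, plus strand: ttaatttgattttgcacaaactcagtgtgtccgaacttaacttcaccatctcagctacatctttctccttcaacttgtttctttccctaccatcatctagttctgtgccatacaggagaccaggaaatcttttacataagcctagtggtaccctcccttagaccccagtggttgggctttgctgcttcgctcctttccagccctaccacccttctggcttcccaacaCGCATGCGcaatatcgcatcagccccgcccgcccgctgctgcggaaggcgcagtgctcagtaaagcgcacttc
Magel2, chr7:62376729-62377028, plus strand: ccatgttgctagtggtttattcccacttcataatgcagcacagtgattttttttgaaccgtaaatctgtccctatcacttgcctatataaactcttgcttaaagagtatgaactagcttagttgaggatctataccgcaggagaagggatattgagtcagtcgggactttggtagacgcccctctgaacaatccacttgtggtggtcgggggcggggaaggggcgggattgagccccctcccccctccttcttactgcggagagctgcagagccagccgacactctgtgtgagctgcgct
Mkrn3, chr7:62420104-62420403, minus strand: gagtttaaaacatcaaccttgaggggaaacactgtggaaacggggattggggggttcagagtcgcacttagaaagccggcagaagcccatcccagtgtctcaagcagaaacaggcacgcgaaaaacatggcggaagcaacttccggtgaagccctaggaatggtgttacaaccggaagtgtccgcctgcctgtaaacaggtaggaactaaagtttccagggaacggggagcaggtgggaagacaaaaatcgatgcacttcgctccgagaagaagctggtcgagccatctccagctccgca
Peg12, chr7:62464461-62464760, minus strand: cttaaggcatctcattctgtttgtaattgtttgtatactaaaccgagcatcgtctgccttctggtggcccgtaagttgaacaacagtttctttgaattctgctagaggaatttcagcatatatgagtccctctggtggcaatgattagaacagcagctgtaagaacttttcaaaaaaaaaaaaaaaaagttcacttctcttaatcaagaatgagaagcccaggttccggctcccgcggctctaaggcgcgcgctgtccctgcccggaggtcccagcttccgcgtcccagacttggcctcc

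The palindrome was found at 5 of the 10 starts, namely at all 4 Snrpn starts and at Ndn. Among 32817 promoters of the same length 1.86% hold it. Since the palindrome was chosen after these starts had been seen, this share is no test of them. Its first base lay at position -23 relative to the start of Ndn and at position 36 relative to the start shared by Snrpn and Snurf. The 3 other Snrpn starts carry it in a nearly shared stretch, shown with its flanks and set beside that of Ndn.
Snrpn, start in chr7:60450128-60450427: gcaaacatccaCGCATGCGtgattggaagg
Snrpn, start in chr7:60140176-60140475: gcaaacatccaCGCATGCGtgatgggaggg
Snrpn, start in chr7:60047929-60048228: gcaaacatgcaCGCATGCGtcgttgaaggt
Ndn: gcttcccaacaCGCATGCGcaatatcgcat
The starts of Magel2, Mkrn3, Peg12, Ube3a and Atp10a do not contain these letters within this window. The ZFP57 hexamer was found on the reverse strand at the shared Snrpn and Snurf start and at no other start of the members, and 11.6% of all promoters hold it. CG dinucleotides numbered 7 at the shared Snrpn and Snurf start, and 2, 3 and 4 at the 3 other Snrpn starts in the order above. They numbered 11 at Ndn, 10 at Magel2, 15 at Mkrn3, 12 at Peg12, 29 at Ube3a and 20 at Atp10a, with a median of 7 over all promoters. A match is a description of the letters and shows no binding.

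The libraries held between 7301034 and 8008500 allele-assigned reads, those that a strain variant lets be given to a parental allele. Where a genotype has 2 values, they are from its XistdeltaA/+ and its Xist1lox/+ library in that order. Smchd1 was at 6.68 and 5.98 FPKM (fragments scaled to transcript length and library depth) in the MD1/MD1 libraries and at 27.0 and 20.9 FPKM in the +/+ libraries. Markers of primed epiblast, all 8 of them, were detected in every library, with summed FPKM of 1522 and 1517 in the MD1/MD1 libraries and 1055 and 1597 in the +/+ libraries. Markers of other cell types were detected too. The 10 fibroblast markers, which can come from feeder cells, summed to 133 FPKM in MD1/MD1 XistdeltaA/+ against 54.4 in +/+ XistdeltaA/+, and to 69.9 in MD1/MD1 Xist1lox/+ against 74.1 in +/+ Xist1lox/+. The 8 macrophage markers in the table summed to 919 FPKM in MD1/MD1 XistdeltaA/+ against 23.8 in +/+ XistdeltaA/+, and to 294 in MD1/MD1 Xist1lox/+ against 325 in +/+ Xist1lox/+. Tyrobp and Emr1 among them were listed at 0 in +/+ XistdeltaA/+, which thus stood apart from the other 3 libraries. The 8 neuron markers summed to 111 and 122 FPKM in the MD1/MD1 libraries and to 151 and 198 FPKM in the +/+ libraries. Stmn2, of a tubulin-binding protein, made up most of these sums, at 70.0 and 78.4 FPKM in MD1/MD1 against 125 and 152 FPKM in +/+ (limma unadjusted p = 0.00162, adjusted p = 0.716). The 7 others summed to 41.1 and 43.2 FPKM in MD1/MD1 against 26.1 and 45.8 FPKM in +/+. In bulk RNA, fewer cells of a type and less RNA per cell cannot be told apart.

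The neighbouring genes set which libraries can show a parental origin. The hybrid parent can pass on a JF1 or a C57BL6/J copy, and reads of a paternal C57BL6/J copy look like maternal reads. They are called maternal-type here. Within 5 Mb on either side of the cluster, 26 of 41 genes reached 20 allele-assigned reads in each of the 4 libraries. Their median paternal share was 47.4% (28.6 to 70.3) in MD1/MD1 XistdeltaA/+ and 0% (0 to 2.63) in +/+ XistdeltaA/+. It was 46.7% (23.7 to 57.4) in MD1/MD1 Xist1lox/+ and 0% (0 to 6.67) in +/+ Xist1lox/+. Both parental copies could therefore be told apart around the cluster in both MD1/MD1 libraries, and in neither +/+ library.

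The named neighbours show the same split at single genes. Chrna7, a nicotinic acetylcholine receptor gene above the cluster, was at 53.3% and 52.8% in MD1/MD1 and at 0 of 29 and 21 reads in +/+, which allows up to 10.3% and 14.3%. The neighbours with the most reads were Snrpa1, Tjp1 and Cyfip1. Snrpa1, of a U2 snRNP protein, was at 50.8% and 50.6% in MD1/MD1 and at 0% and 0.0762% in +/+. Tjp1, of a tight junction protein, was at 47.1% and 44.5%, against 0% in both +/+ libraries. Cyfip1, of a protein that regulates actin assembly, was at 45.6% and 46.8%, against 0.369% and 0.146% in +/+. On chromosome 7 the windows of 10 Mb from 60 to 100 Mb had this pattern, with medians of 32.9% to 51.0% in MD1/MD1 and 0% in +/+. Over all autosomes it was found in 19 of 248 windows, or 7.66%. A paternal share of a member cannot be compared between Smchd1 genotypes, since the genotype and the type of the paternal copy cannot be told apart here.

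**Figure D1:**
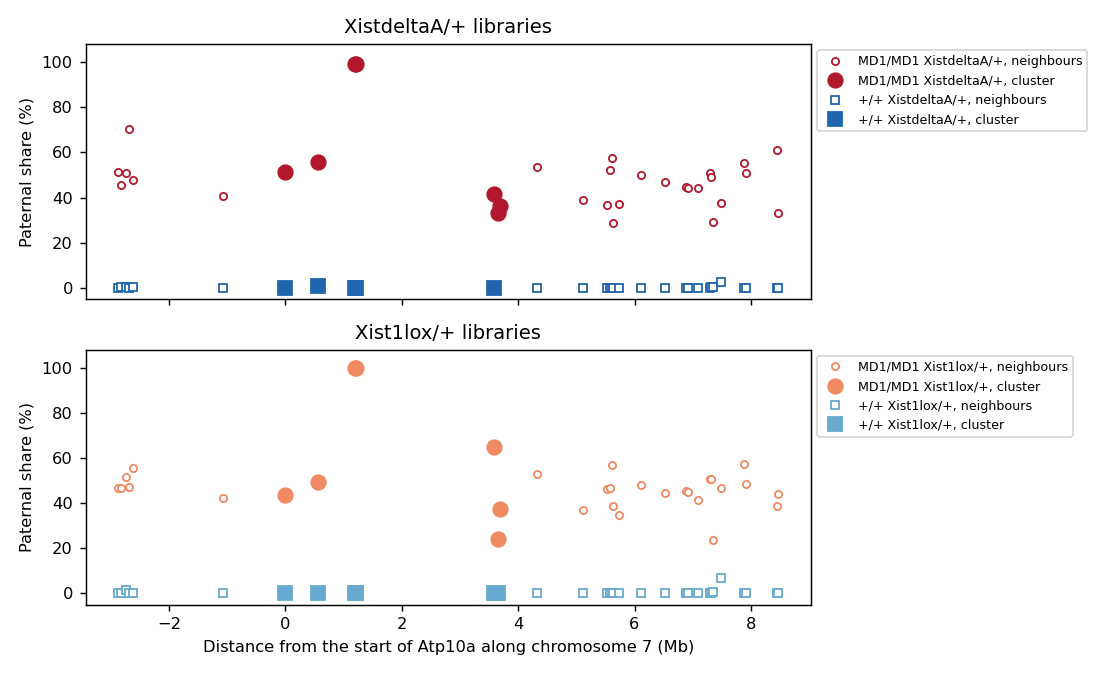
Paternal share of allele-assigned reads (y axis, %) against distance from the start of Atp10a (x axis, Mb), for the XistdeltaA/+ libraries above and the Xist1lox/+ libraries below. Large symbols are entries of the cluster including Snhg14 and small open symbols are the 26 neighbours, with MD1/MD1 as circles and +/+ as squares. The neighbours lie between 23.7% and 70.3% in MD1/MD1 and at no more than 6.67% in +/+.

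Snrpn was transcribed almost wholly from the paternal copy in both libraries that can show it. Snrpn encodes SmN, a core protein of spliceosomal particles (minus strand, positions 67127387 to 67285105). In MD1/MD1 XistdeltaA/+, 1680 of 1693 reads were paternal, or 99.2% (95% interval 98.7 to 99.6). In MD1/MD1 Xist1lox/+ it was 1455 of 1458, or 99.8% (99.4 to 99.96). In the +/+ libraries 1 of 571 and 0 of 796 reads were of paternal type, which cannot be read as a parental origin. Intervals here are exact Clopper-Pearson intervals and, like the limits for counts of 0, cover counting error only.

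Snhg14 lies just beside Snrpn on the same strand and hosts small nucleolar RNAs. It is not among the members and is named after its values were seen. It had 407 paternal reads of 410 in MD1/MD1 XistdeltaA/+, or 99.3%, and 412 of 412 in MD1/MD1 Xist1lox/+. Of 6988 autosomal genes in windows with both alleles and at least 20 reads in both MD1/MD1 libraries, 0.372% were at 90% paternal or more in both. Of the 5 members with enough reads, 1 was, and this was Snrpn. Ipw, another noncoding RNA of the cluster, had no allele-assigned read in any library. It was at 0.222 and 0.201 FPKM in the MD1/MD1 libraries and listed at 0 in both +/+ libraries. Of genes whose mean FPKM reached 0.1, 15.8% had both MD1/MD1 libraries above both +/+ libraries. A230057D06Rik, also inside the span, went the other way, at 0.0280 and 0.0274 FPKM in +/+ and 0 in both MD1/MD1 libraries. B230209E15Rik was above 0 in +/+ XistdeltaA/+ alone and A330076H08Rik in MD1/MD1 Xist1lox/+ alone. All these values are near the floor.

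Ndn, Mkrn3 and Peg12 lie together, 2.21 Mb beyond Snrpn and within 116 kb, and differed from Snrpn in allele content. Reads of both types were found for all 3 genes in both MD1/MD1 libraries. Ndn encodes necdin, a MAGE family protein of postmitotic neurons (positions 69493163 to 69494813, plus strand). Its paternal reads were 22 of 53 in MD1/MD1 XistdeltaA/+, or 41.5% (28.1 to 55.9), and 22 of 34 in MD1/MD1 Xist1lox/+, or 64.7% (46.5 to 80.3). The interval ends below that of Snrpn in each library. In the +/+ libraries 0 of 19 and 0 of 12 reads were of paternal type, which allows up to 15.8% and 25%. The first share lay within the range of the neighbours and the second above the highest of them, with an interval that reaches into their range.

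Mkrn3 encodes a makorin RING finger protein known in humans to restrain the onset of puberty (69562479 to 69565025, minus strand). It had 11 paternal reads of 33, or 33.3% (18.0 to 51.8), in MD1/MD1 XistdeltaA/+. In MD1/MD1 Xist1lox/+ it had 8 of 33, or 24.2% (11.1 to 42.3). Maternal-type reads were thus the more numerous for Mkrn3 in both libraries. Both of its shares lay within the range of the neighbours (28.6 to 70.3 and 23.7 to 57.4), near the lower end. The neighbour Chsy1 was at 29.3% and 23.7%. Peg12, of the FRAT family of GSK3-binding proteins (69606757 to 69609396, minus strand), had 4 of 11, or 36.4% (10.9 to 69.2), and 6 of 16, or 37.5% (15.2 to 64.6). Magel2, of a MAGE protein that works with the ubiquitin ligase TRIM27 (69521865 to 69526526, plus strand), had 5 and 0 reads in the MD1/MD1 libraries, against 0 and 2 in the +/+ libraries. That is too few for a deposited share.

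**Figure D2:**
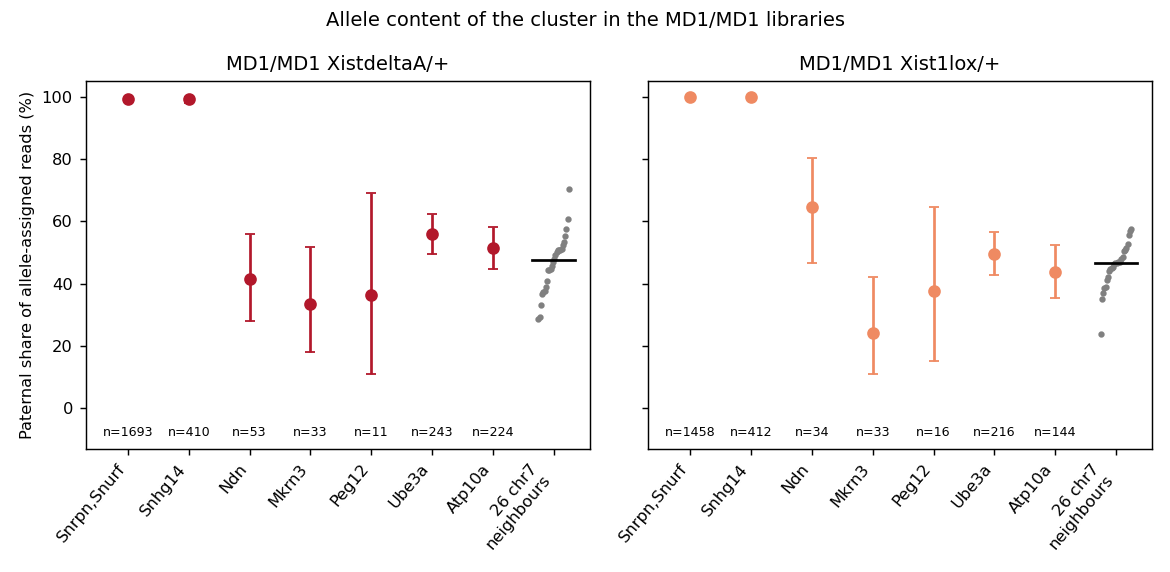
Paternal share of allele-assigned reads (y axis, %) in MD1/MD1 XistdeltaA/+ (left) and MD1/MD1 Xist1lox/+ (right). Points are genes with exact 95% intervals and their number of reads below, and grey dots are the 26 neighbours with their median as a line. Snrpn and Snhg14 are above 99% while Ndn, Mkrn3, Peg12, Ube3a and Atp10a lie between 24.2% and 64.7%.

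Ube3a and Atp10a, at the other end of the cluster, were read from both copies in the MD1/MD1 libraries. Ube3a encodes a ubiquitin ligase (66484120 to 66562097, plus strand). Its paternal share was 56.0% (49.5 to 62.3) in MD1/MD1 XistdeltaA/+ and 49.5% (42.7 to 56.4) in MD1/MD1 Xist1lox/+. Atp10a encodes a phospholipid-transporting ATPase (65913572 to 66084796, plus strand). Its share was 51.3% (44.6 to 58.1) and 43.75% (35.5 to 52.3) in the same libraries. In the +/+ libraries Ube3a had 3 of 299 and 0 of 184 reads of paternal type, and Atp10a had 0 of 188 and 0 of 204. All 4 MD1/MD1 values lay within the range of the neighbours. The sources used here do not state whether counting used the strand, so reads of Ube3a and of an antisense transcript cannot be told apart. A230073K19Rik, annotated inside Ube3a on the other strand, had 0 to 1 reads.

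Between both MD1/MD1 libraries the shares of the members did not pass the read test. Fisher's exact test (two-sided) over 10316 genes, with Benjamini-Hochberg adjustment, called 29.1% of genes and 0 of the 5 members tested. Ndn was 23.2 points higher in MD1/MD1 Xist1lox/+ than in MD1/MD1 XistdeltaA/+ (64.7% against 41.5%, unadjusted p = 0.0481 and adjusted p = 0.140). Snrpn differed by 0.562 points (unadjusted p = 0.0410, adjusted p = 0.122). At an unadjusted p under 0.05 the test gave these 2 members and 34.6% of all genes. The 10316 genes were not limited to windows with both alleles in both MD1/MD1 libraries. Such windows held 6988 autosomal genes with at least 20 reads in both. In the window from 20 to 30 Mb of chromosome 7 the median share was 47.4% in MD1/MD1 XistdeltaA/+ and 0% in MD1/MD1 Xist1lox/+. The percentages over all genes are therefore no like background for the members. The test compares these libraries, not the Xist mutations.

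Other genes known to be expressed from the paternal copy were read for comparison, from a list chosen after the members' values had been seen. Of 19 listed, 12 lay in windows with both alleles and had at least 20 reads in both MD1/MD1 libraries, and 7 of them were at 90% or more in both. Nnat, of the membrane protein neuronatin, was at 100% in both, and Slc38a4, of an amino acid transporter, at 99.9% and 100%. Lower shares were found for the growth factor gene Igf2, at 86.0% and 50.3%. The noncoding RNA gene Peg13 was at 57.8% and 81.0%, and Plagl1, of a zinc finger protein, at 70.3% and 85.5%. No gene of the 12 had shares under 50% in either library, whereas Mkrn3 did in both and Ndn in MD1/MD1 XistdeltaA/+. In MD1/MD1 XistdeltaA/+ the intervals of Mkrn3 (18.0 to 51.8) and Ndn (28.1 to 55.9) include 50%. That of Mkrn3 in MD1/MD1 Xist1lox/+ (11.1 to 42.3) does not. Peg12 was under 50% in both, but its 11 and 16 reads are below the minimum of 20 set for the 12. Its intervals include 50% as well.

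The next comparison was of total levels between Smchd1 genotypes. For levels too, by FPKM or by reads, the Smchd1 genotype and the type of the paternal copy cannot be told apart, since the MD1/MD1 libraries carry a JF1 copy of the cluster and the neighbours of the +/+ libraries gave maternal-type reads. Ndn was at 14.8 FPKM in MD1/MD1 XistdeltaA/+ against 2.77 in +/+ XistdeltaA/+, and at 13.9 in MD1/MD1 Xist1lox/+ against 5.43 in +/+ Xist1lox/+. Both MD1/MD1 libraries lay above both +/+ libraries, by 5.35 and 2.56 times within the pairs. limma on log2(FPKM + 1), with Xist mutation as a second term, gave a log2 difference of 1.64 ± 0.26 (SE). The unadjusted p was 0.00122 and the adjusted p over 11471 genes was 0.652, so Ndn did not pass. Without the +/+ Xist1lox/+ library, in a limma fit of Smchd1 genotype alone, the difference was 2.03 and the adjusted p 0.0155. Without any other single library the adjusted p of limma was 0.139 or more.

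Mkrn3 was at 1.24 FPKM in MD1/MD1 XistdeltaA/+ against 0.559 in +/+ XistdeltaA/+, and at 1.29 in MD1/MD1 Xist1lox/+ against 0.632 in +/+ Xist1lox/+. Peg12 was at 0.515 FPKM in MD1/MD1 XistdeltaA/+ against 0.0931 in +/+ XistdeltaA/+, and at 0.744 in MD1/MD1 Xist1lox/+ against 0.294 in +/+ Xist1lox/+. Neither gene's groups overlapped. Both have a mean FPKM under 1 and were left out of the limma fit, which tested 5 of the 7 members. With the filter lowered to a mean of 0.1 their log2 differences were 0.51 ± 0.19 and 0.45 ± 0.17 (SE, limma adjusted p = 0.953 for both), understated by the pseudocount of 1.

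Magel2 was at 2.39 FPKM in MD1/MD1 XistdeltaA/+ against 0.515 in +/+ XistdeltaA/+, and at 1.62 in MD1/MD1 Xist1lox/+ against 1.42 in +/+ Xist1lox/+. The groups did not overlap, but the highest +/+ library was close to the lower MD1/MD1 library (limma log2 difference 0.64 ± 0.35 SE, adjusted p = 0.937). Snrpn had the highest level of the cluster. It was at 152 FPKM in MD1/MD1 XistdeltaA/+ against 117 in +/+ XistdeltaA/+, and at 156 in MD1/MD1 Xist1lox/+ against 151 in +/+ Xist1lox/+, with a limma log2 difference of 0.21 ± 0.16 (SE, adjusted p = 0.937). The groups did not overlap, though in the Xist1lox/+ pair the values were 1.03 times apart.

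Ube3a and Atp10a overlapped between genotypes. Ube3a was at 11.1 FPKM in MD1/MD1 XistdeltaA/+ against 11.6 in +/+ XistdeltaA/+, and at 9.19 in MD1/MD1 Xist1lox/+ against 7.38 in +/+ Xist1lox/+. Atp10a was at 3.52 and 2.73 FPKM in the MD1/MD1 libraries against 2.96 and 3.05 FPKM in the +/+ libraries. Their limma log2 differences were 0.11 ± 0.19 and 0.035 ± 0.23 (SE, adjusted p = 0.956 and 0.994), and the sign turned with edgeR and on leaving out 1 library for both genes.

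Counted over the cluster, the 5 members known as paternally expressed had both MD1/MD1 libraries above both +/+ libraries, and 0 of the 7 members had both below. Over the 14510 genes whose mean FPKM reached 0.1, 15.8% were above and 17.5% below in this way. Of the 5 members whose mean reached 1, 3 were above, against 13.8% of such genes. In both pairs 1 member, Ndn, differed by 2-fold or more towards MD1/MD1, as did 0.131% of 11471 genes, and 0 members did so towards +/+, as did 0.113%. limma called 0 of the 5 members tested and 0.0349% of all genes at an adjusted p under 0.05. At an unadjusted p under 0.05 it gave 1 member, Ndn, and 3.26% of genes. The members' median log2 ratios were 0.37 and 0.11 in the XistdeltaA/+ and Xist1lox/+ pairs, against -0.048 and 0.0040 over all genes tested.

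Allele-assigned reads gave a second measure of the same libraries. edgeR's quasi-likelihood test on these counts, adjusted over 11617 genes, called 0.043% of genes and 0 of 6 members, with 2 members and 2.62% of genes at an unadjusted p under 0.05. The members were Ndn (log2 difference 1.51, adjusted p = 0.969) and Snrpn (1.25, adjusted p = 0.874). Mkrn3 and Peg12 had edgeR log2 differences of 1.59 and 2.01 (adjusted p = 0.969 for both). Few reads lie behind these, with 8 and 15 for Mkrn3 and 2 and 5 for Peg12 in the +/+ libraries. DESeq2 on the same counts called Snrpn (log2 difference 1.25, adjusted p = 0.0223) and no other member, and 0.143% of genes.

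For Snrpn the 2 measures differed in size. Its allele-assigned reads numbered 1693 in MD1/MD1 XistdeltaA/+ against 571 in +/+ XistdeltaA/+, and 1458 in MD1/MD1 Xist1lox/+ against 796 in +/+ Xist1lox/+. Scaled to the allele-assigned total of each library that was 2.90 and 1.96 times higher, where FPKM was 1.30 and 1.03 times higher. Snhg14 beside it had 1.01 and 1.38 times as many such reads in MD1/MD1 as in +/+, with FPKM ratios of 1.01 and 1.46. The neighbours' median log2 ratio was 0.16 and -0.060 by these reads and 0.13 and 0.028 by FPKM. By reads the neighbours ranged from -1.18 to 1.64 in the XistdeltaA/+ pair and from -0.61 to 0.88 in the Xist1lox/+ pair. The log2 read ratios of Snrpn, 1.53 and 0.97, thus lay within this range in the XistdeltaA/+ pair and above it in the Xist1lox/+ pair.

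The split of FPKM by allele type set the parts of Ndn, Mkrn3 and Peg12 in MD1/MD1 beside the totals of +/+. The paternal-type part of Ndn was 6.15 FPKM in MD1/MD1 XistdeltaA/+, with counting limits of 4.17 and 8.28, against a total of 2.77 in +/+ XistdeltaA/+. In MD1/MD1 Xist1lox/+ it was 9.01 (6.47 to 11.2), against a total of 5.43 in +/+ Xist1lox/+. In each pair the paternal-type part of Ndn alone was above the total of the +/+ library. Its maternal-type part was 8.67 FPKM in MD1/MD1 XistdeltaA/+, above the +/+ total, and 4.91 in MD1/MD1 Xist1lox/+, below it. The maternal-type part of Mkrn3 was 0.828 (0.598 to 1.02) and 0.974 (0.742 to 1.14) FPKM in MD1/MD1, against +/+ totals of 0.559 and 0.632. Its paternal-type part, at 0.414 and 0.312 FPKM in MD1/MD1, was below the +/+ total in both pairs. The maternal-type part of Peg12 was 0.328 (0.158 to 0.459) and 0.465 (0.264 to 0.631) FPKM in MD1/MD1, against +/+ totals of 0.0931 and 0.294. The second interval includes the +/+ total. The paternal-type part of Peg12 was 0.187 and 0.279 FPKM in MD1/MD1. This part was above the +/+ total in the XistdeltaA/+ pair and below it in the Xist1lox/+ pair. These limits leave out the error of the FPKM itself.

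**Figure D3:**
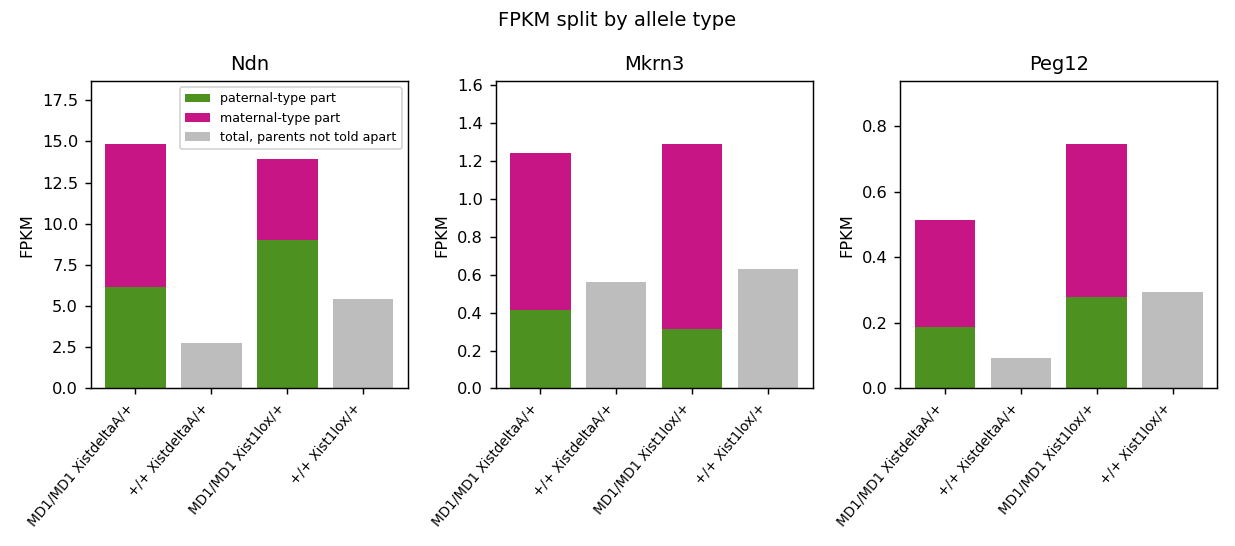
FPKM (y axis, each panel on its own scale from 0) of Ndn, Mkrn3 and Peg12 in the 4 libraries (x axis). In MD1/MD1 the bar is split by the share of reads of paternal and maternal type, and in +/+ the grey bar is the total because the parents cannot be told apart. Ndn reaches 14.8 and 13.9 in MD1/MD1 and 2.77 and 5.43 in +/+.

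Paternal shares of fibroblast, macrophage and neuron markers in the MD1/MD1 libraries varied widely between genes. By limma 0 of the 10 fibroblast markers passed the adjusted test for Smchd1 genotype, with 3 at an unadjusted p under 0.05, and 5 were at least 2-fold higher in the XistdeltaA/+ pair against 0 in the Xist1lox/+ pair. Of the 10 fibroblast markers, 5 lay in windows with both alleles and had at least 20 reads in both, and their median paternal share was 16.6% and 13.8%, ranging from 1.99% to 63.8% and from 1.69% to 80%. The highest was Col5a2, a collagen gene, at 63.8% and 80%. The lowest was another collagen gene, Col1a2, which was at 1.99% and 1.69%, and at 26.7 and 11.1 FPKM in the MD1/MD1 libraries against 6.34 and 11.7 FPKM in the +/+ libraries. Of the macrophage markers 3 could be read, with medians of 6.25% and 16%. The highest of them, Cd68, was at 18.6% and 30.9%. The lowest, the lysozyme gene Lyz2, was at 0.0265% and 0%, and at 799 and 247 FPKM in MD1/MD1 against 0.384 and 274 FPKM in +/+. The 5 primed epiblast markers read in the same way had medians of 51.0% and 49.2%. The 3 neuron markers so read had medians of 50% and 55%, ranging from 20.5% to 90.4% and from 22.4% to 84.2%. Stmn2 was the lowest of them, at 20.5% and 22.4%. Reads of maternal type at Ndn were 31 of 53 in MD1/MD1 XistdeltaA/+ and 12 of 34 in MD1/MD1 Xist1lox/+, so they were more frequent in the library with more fibroblast and macrophage RNA. For Mkrn3 they were 22 of 33 and 25 of 33. The part of these cells in the reads of the cluster was not tested.

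The other factor of the design was the Xist mutation, Xist1lox over XistdeltaA. limma called 0.0% of genes and 0 of 5 members. At an unadjusted p under 0.05 it gave 3.21% of genes and 0 members. The log2 differences were 0.34 ± 0.26 for Ndn, 0.15 ± 0.35 for Magel2, 0.20 ± 0.16 for Snrpn, -0.41 ± 0.19 for Ube3a and -0.12 ± 0.23 for Atp10a (SE, adjusted p between 0.927 and 0.964).

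Genes that work with or lie beside the cluster did not pass. limma called 0 of the 10 tested genes of and beside the domain that are read from both copies, 0 of 12 partners of necdin and MAGEL2, 0 of 7 other Sm protein genes and 0 of 11 imprint maintenance genes, also at an unadjusted p under 0.05. At least 2-fold apart in both pairs were 0 genes of these 4 lists. Klf13, a transcription factor gene beside the cluster, had the widest gap of the first list, at 11.3 and 12.2 FPKM in MD1/MD1 against 18.1 and 15.3 FPKM in +/+ (limma log2 difference -0.47 ± 0.19 SE, adjusted p = 0.937). Among the partners, Maged1, of another MAGE protein, was at 88.6 and 99.2 FPKM in MD1/MD1 against 116 and 100.4 FPKM in +/+. Vps29, of the retromer complex that MAGEL2 binds, was at 82.1 and 88.0 FPKM in MD1/MD1 against 97.6 and 96.9 FPKM in +/+. Snrpb, of the Sm protein that SmN resembles, was at 549 and 609 FPKM in MD1/MD1 against 455 and 611 FPKM in +/+. Snrpe, of another Sm protein, was at 364 and 497 FPKM in MD1/MD1 against 431 and 536 FPKM in +/+. Trim28, of the corepressor recruited by ZFP57, was at 399 and 443 FPKM in MD1/MD1 against 364 and 448 FPKM in +/+. Uhrf1, of a protein that recruits maintenance methylation, was at 91.6 and 95.2 FPKM in MD1/MD1 against 82.4 and 88.6 FPKM in +/+. Zfp57 itself, named after its value was seen, was at 14.0 and 18.0 FPKM in MD1/MD1 against 19.1 and 17.9 FPKM in +/+.

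The genes whose levels over the 4 libraries were most like those of Ndn were 1700030C10Rik, Gm3264 and Pisd-ps2, with root mean square differences of 0.12, 0.21 and 0.23 in centred log2(FPKM + 1). 1700030C10Rik was at 3.34 and 3.07 FPKM in MD1/MD1 against 0.149 and 1.14 FPKM in +/+. Gm3264 was at 11.3 and 15.3 FPKM in MD1/MD1 against 2.39 and 6.07 FPKM in +/+, and Pisd-ps2 at 2.84 and 2.89 FPKM against 0.275 and 0.404 FPKM. Both of these belong to families of close copies, so their counts are uncertain. The measure says only that the levels followed a like pattern over these libraries.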

How the data were processed

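The 4 EpiSC samples were sequenced from a stranded mRNA library each, per the labels' protocols. mm9, Cufflinks 2.2.1 and Cuffdiff are named in the submitters' processing notes without their roles. The sources used here give no aligner, variant list or annotation. Per the file headers, the authors deposited for each gene a count of allele-assigned reads, the fraction of them that is paternal (for genes with at least 10 such reads, with 12 values missing) and FPKM. Fractions times counts gave whole reads for 100% of values (tolerance 1e-06). Columns of per-sample values left out numbered 6. Table starts count from 0 and were printed from 1.

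limma 3.58.1 with a trend was run on log2(FPKM + 1) where the mean FPKM reached 1, with Smchd1 genotype and Xist mutation as terms, 2 libraries against 2, and 1 residual degree of freedom. That 1 degree is the interaction of both terms. edgeR 4.0.16 and DESeq2 1.42.0 were run on the read counts, with the same terms. All p-values were adjusted over all genes tested. scipy 1.17.1 gave exact intervals and Fisher's exact test. The limma, edgeR and Fisher steps were tested on simulated data. The labels do not say that libraries are from separate cultures, so p-values measure only the spread between them. Neighbours counted with at least 20 reads in all 4 libraries, and windows of 10 Mb counted as holding both alleles at a median share of 5% or more.

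The members, gene lists and tests were chosen with earlier results of these data known. Genes named by rule were all members, the nearest neighbours, the 3 with most reads and the 3 genes nearest to Ndn. From lists the rule took genes that passed or else the highest expressed. Genes outside this rule were named with their values known, which is not said beside each of them. That statement is missing for Chsy1, Tyrobp, Emr1, Col5a2 and the non-member entries inside the cluster other than Snhg14. The result of 1 gene that this rule names is not reported here. Alternatives were other pseudocounts, filters, normalizations, fold sizes, read minimums and distances, and leaving out each library.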

Additional observations from a re-analysis of the deposited data

Results flagged for a closer look

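Atp10a and Ube3a moved in opposite directions in the 2 Xist backgrounds, and this difference was not tested. The log2 ratio of MD1/MD1 over +/+ was 0.19 for Atp10a in the XistdeltaA/+ pair and -0.12 in the Xist1lox/+ pair. For Ube3a it was -0.057 in the XistdeltaA/+ pair and 0.28 in the Xist1lox/+ pair. All 4 ratios lay within the range of the 26 neighbours. That range was -0.70 to 0.77 in the XistdeltaA/+ pair and -0.31 to 0.40 in the Xist1lox/+ pair. With 1 library a group, none of the 4 ratios has a replicate check.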

How the results depend on the processing

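limma called 0 members, and 0 were called under the other pseudocounts, filters and normalizations, with Smchd1 genotype alone or by edgeR. DESeq2 called 1 (Snrpn). Leaving out a library, with Smchd1 genotype alone, gave between 0 and 1 called members, the 1 being Ndn without +/+ Xist1lox/+, and between 9 and 24 called genes in all, against 6 in the same fit with all libraries and 4 with both terms (9 without MD1/MD1 XistdeltaA/+, 11 without MD1/MD1 Xist1lox/+, 14 without +/+ XistdeltaA/+ and 24 without +/+ Xist1lox/+). The number of genes called in all was also 2 at a pseudocount of 0.01, 0 without a filter on low FPKM, 22 by edgeR without a filter and 22 by DESeq2. The log2 difference stayed above 0 in every alternative fitted for Ndn (1.26 to 2.03 over 15), Snrpn (0.029 to 1.26 over 15), Magel2 (0.30 to 1.19 over 13), Mkrn3 (0.51 to 1.62 over 5) and Peg12 (0.45 to 2.09 over 5). For these genes both MD1/MD1 libraries lay above both +/+ libraries in FPKM. Other pseudocounts or filters, Smchd1 genotype alone and leaving out a library could therefore not turn the sign. The fits that leave out a library did not cover Mkrn3 and Peg12. The log2 difference turned negative for Atp10a without MD1/MD1 XistdeltaA/+ (-0.10), by edgeR (-0.092), by edgeR with RLE factors (-0.082) or no filter (-0.096) and by DESeq2 (-0.090). For Ube3a it did so without MD1/MD1 XistdeltaA/+ (-0.0091) or without +/+ Xist1lox/+ (-0.18), by edgeR (-0.0049), by edgeR with no filter (-0.0098) and by DESeq2 (-0.0030). Members at least 2-fold higher in both pairs numbered 1, and 2 at a pseudocount of 0.1 (Ndn and Peg12), 0 at 3-fold and 3 by reads scaled to the library total (Ndn, Mkrn3 and Peg12). With a minimum of 50 reads, 3 members had a share in both MD1/MD1 libraries, against 5. Snrpn was the 1 member at the bound for 1 allele at every minimum and bound tried, and 2 libraries had neighbours of maternal type alone at every distance, minimum and bound tried. The cause of these changes was not tested. The labels give no replicate numbers, so libraries could be paired by Xist background alone. The Xist term of the fits sets each MD1/MD1 library beside the +/+ library of its own Xist background. Few reads limit Ndn, Mkrn3, Peg12 and Magel2.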
